A study of Homo sapiens with 24 samples.

Results

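The genes described are 10 that encode the thin filament, thick filament and filament-binding proteins of smooth muscle type contractile cells: ACTA2, ACTG2, TAGLN, CNN1, CNN2, MYL9, TPM1, TPM2, CALD1 and MYH11. They were read on 24 arrays, in an SLFN11 knockout derivative of the human Ewing sarcoma line ES8 and in parental ES8 cells, and are 10 of the 17687 genes that the arrays measured. The set was selected on a measured value: ACTA2 had a higher signal in the SLFN11 knockout line than in parental cells. The difference between the lines is therefore given for these genes as a description: the fit's calls are counted beside the share over all genes, and they are no independent evidence. The effects of irradiation and of time played no part in the choice.

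In smooth muscle cells, pericytes and myofibroblasts, alpha and gamma smooth muscle actin polymerise into filaments that are coated by tropomyosin and bound by calponin, transgelin and caldesmon, and smooth muscle myosin pulls on them once its regulatory light chain is phosphorylated. Serum response factor with its myocardin family partners binds CArG boxes near many of these genes, and TGF-beta signalling is known to raise their transcription. Several of them, tropomyosins, caldesmon and calponin 2 among them, also serve the actin cytoskeleton of cells that are not muscle, and Ewing sarcoma is a tumour of uncertain, primitive mesenchymal or neural crest type origin.

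The study set a knockout line against parental ES8 cells to ask how SLFN11, a protein that acts at stressed replication forks, bears on gene expression after DNA damage. The knockout cells are 1 derivative line, ES8-1F2, in which SLFN11 was disrupted with CRISPR/Cas9, so an effect of the knockout and a difference carried by that 1 line cannot be told apart. Cells of both lines grew in DMEM/F12 medium with glutamine and fetal bovine serum, were exposed to gamma radiation at 2 Gy or left at 0 Gy, and RNA was taken 24 h or 4 h afterwards. There are 8 groups of 3 arrays: knockout cells at 0 Gy and 4 h, 0 Gy and 24 h, 2 Gy and 4 h, and 2 Gy and 24 h, and parental cells under the same 4 conditions. The labels leave unsaid whether the 3 replicates of a group were separate cultures, and p-values here therefore reflect the spread among these arrays, technical or not.

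SLFN11 itself, the check of the labels, had log2 signals of 6.33 to 7.07 on the 12 knockout arrays and 8.03 to 8.63 on the 12 parental arrays. Background was taken as the 95th percentile over 612 negative control probe sets on each array, and lay at 3.46 to 3.81 on the log2 scale. Arrays of a group correlated at 0.985 to 0.993 across genes. Of 9 Ewing sarcoma markers measured, all 9 were above background on every array. So were 8 of 12 pericyte and fibroblast markers, 3 of 7 epithelial, 1 of 5 blood cell and 1 of 5 endothelial markers. The epithelial ones were KRT8, KRT19 and KRT5, the blood cell one CD14 and the endothelial one VWF. POSTN, a matrix protein of fibroblasts, CDH1 of epithelia, LYZ of blood cells and KDR and TEK of endothelium were above background on no array. A bulk signal cannot tell fewer cells with a transcript from less transcript per cell.

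Regulatory sequence shows where these genes differ in CArG boxes, and where ACTA2 meets its neighbour FAS, which encodes a death receptor. RefSeq promoter windows on GRCh38.p14 were found for 7 of the 10 genes, 12 windows in all, and the 250 bases before each start were searched. The search took the strict CArG box, with only A and T in its core, on both strands. It also took the same box with 1 G or C in that core. Below, CArG box alone means the strict form, and binding by SRF was not tested for either form. A CArG box stood in 1.16% of all 35116 windows of this length, 2 or more boxes in 0.0313%, and a box with 1 G or C in 5.96%. ACTG2 had 2 boxes, starting 110 and 73 bases before its start, and CNN2 had 1, starting 89 bases before. Neither ACTA2 window held a strict CArG box. The window at the downstream ACTA2 start held 2 boxes with 1 G or C, starting 121 and 71 bases before it, and the window at its upstream start held none. Of the other windows, 1 of CALD1 also held such a box, starting 26 bases before the start. The upstream ACTA2 start, on the minus strand, lies 94 bases from a FAS start on the plus strand, so 93 bases belong to the upstream windows of both genes. In the upstream ACTA2 window below, capitals mark those shared bases. In the other windows capitals mark a CArG box (ACTG2 and CNN2) or a box with 1 G or C (ACTA2 downstream). Which of these starts the ACTA2 probe set reads was not tested.
ACTA2 upstream start, chr10:88991338-88991587, minus strand: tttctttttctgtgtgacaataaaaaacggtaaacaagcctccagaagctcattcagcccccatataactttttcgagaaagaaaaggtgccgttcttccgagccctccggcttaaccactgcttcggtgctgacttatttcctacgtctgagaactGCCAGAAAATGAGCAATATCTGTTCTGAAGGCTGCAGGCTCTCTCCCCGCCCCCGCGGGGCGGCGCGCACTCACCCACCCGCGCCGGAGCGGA
ACTA2 downstream start, chr10:88952774-88953023, minus strand: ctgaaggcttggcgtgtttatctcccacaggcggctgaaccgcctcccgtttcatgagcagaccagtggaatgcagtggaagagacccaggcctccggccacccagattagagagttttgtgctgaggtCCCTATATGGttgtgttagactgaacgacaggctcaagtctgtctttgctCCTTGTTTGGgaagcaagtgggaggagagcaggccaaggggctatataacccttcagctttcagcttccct
ACTG2, chr2:73892758-73893007, plus strand: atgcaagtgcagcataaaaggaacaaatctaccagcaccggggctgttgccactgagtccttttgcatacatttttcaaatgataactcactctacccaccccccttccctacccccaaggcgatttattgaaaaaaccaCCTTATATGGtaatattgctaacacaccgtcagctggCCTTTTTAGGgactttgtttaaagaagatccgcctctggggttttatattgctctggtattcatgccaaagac
CNN2, chr19:1026358-1026607, plus strand: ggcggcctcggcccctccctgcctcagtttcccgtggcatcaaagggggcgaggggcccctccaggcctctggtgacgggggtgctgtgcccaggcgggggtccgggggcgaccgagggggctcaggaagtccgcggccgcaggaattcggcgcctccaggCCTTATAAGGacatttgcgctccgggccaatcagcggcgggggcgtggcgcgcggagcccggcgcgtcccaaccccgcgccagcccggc

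The lines differed in ACTA2, and the other 9 genes did not follow it, though TAGLN, TPM1 and MYH11 lay near background. ACTA2, alpha smooth muscle actin, was higher in the knockout line in all 4 conditions, by 1.51 on the log2 scale on average. CALD1, caldesmon, was lower by 0.77 and TPM2, beta-tropomyosin, by 0.27, and the remaining 7 genes differed by 0.16 or less in either direction. A gene is called below where limma gave an adjusted p under 0.05 over all 17687 genes (Benjamini-Hochberg, two-sided). In the average over the 4 conditions, 3 of the 10 genes were called, 1 higher and 2 lower, beside 30.4% of all genes. ACTA2 was selected on this contrast, and nothing is read from these calls. Their median log2 difference was -0.03, against -0.02 over all genes. Only ACTA2 had knockout and parental ranges that did not overlap over the 24 arrays, beside 5.65% of all genes. The share of all genes whose lines do not overlap in a single condition was not computed. Overlap within single conditions is therefore given below as a description only.

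ACTA2 had log2 signals of 8.24, 7.89 and 8.06 in knockout cells at 0 Gy and 4 h, against 6.61, 6.54 and 6.19 in parental cells. At 0 Gy and 24 h it had 8.21, 7.82 and 7.70 in knockout cells, against 6.48, 6.32 and 6.32 in parental cells. Every knockout array stood above every parental array in both unirradiated conditions. After 2 Gy and 4 h it had 8.08, 7.89 and 8.02 in knockout cells, against 6.71, 6.69 and 6.42 in parental cells, and after 2 Gy and 24 h 8.31, 8.12 and 7.88 in knockout cells, against 6.62, 6.71 and 6.46 in parental cells. The 12 knockout arrays thus spanned 7.70 to 8.31 and the 12 parental arrays 6.19 to 6.71. The log2 difference was 1.62 at 0 Gy and 4 h, 1.54 at 0 Gy and 24 h, 1.39 at 2 Gy and 4 h and 1.51 at 2 Gy and 24 h, each with an SE of 0.13. The average of 1.51 ± 0.07 (SE) is a 2.85-fold higher signal in knockout cells. Within a line the 4 group means lay close together, at 7.91 to 8.11 in knockout cells and 6.37 to 6.61 in parental cells, and neighbours in that order differed by less than the spread within groups (SD 0.18).

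**Figure D1:**
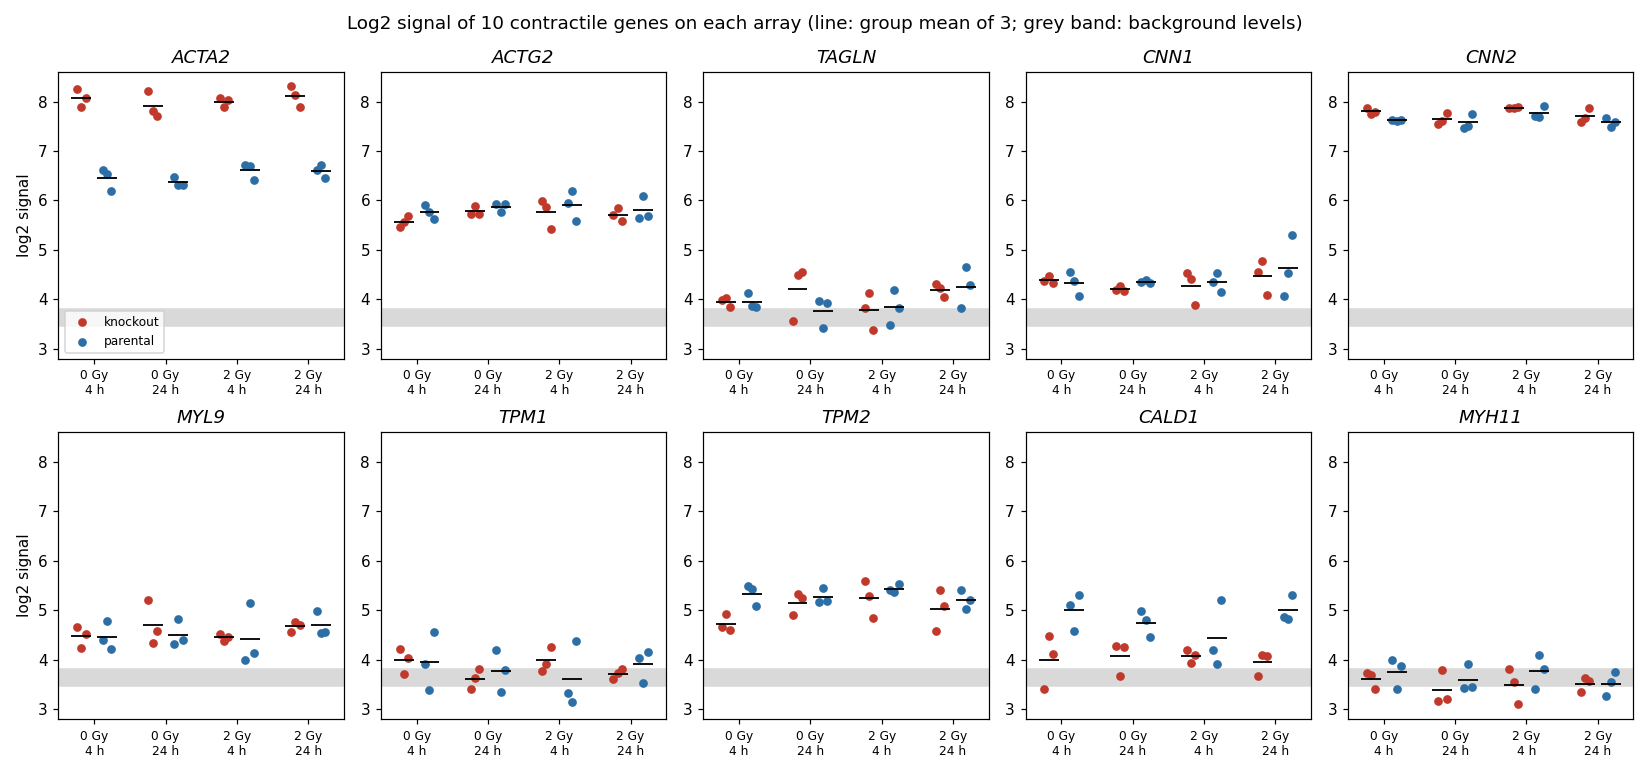
Log2 signal (vertical axis) of each of the 10 genes on the 24 arrays, by dose and time (horizontal axis), with knockout cells in red left of parental cells in blue; lines are means of 3 arrays and the grey band spans the background levels of 3.46 to 3.81. The ACTA2 panel has knockout points at 7.70 to 8.31 and parental points at 6.19 to 6.71, and in the other 9 panels the 2 lines overlap over all arrays.

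CALD1 encodes caldesmon, which binds actin and tropomyosin and restrains myosin. Its log2 signal was 3.40, 4.49 and 4.11 in knockout cells at 0 Gy and 4 h, against 5.10, 4.58 and 5.31 in parental cells. At 0 Gy and 24 h it was 4.27, 3.68 and 4.26 in knockout cells, against 4.99, 4.80 and 4.45 in parental cells. All 3 parental arrays were above all 3 knockout arrays in both conditions. After 2 Gy and 4 h it was 4.20, 3.94 and 4.10 in knockout cells, against 4.20, 3.91 and 5.20 in parental cells, and here the lines overlapped because 2 parental arrays were as low as the knockout arrays. After 2 Gy and 24 h it was 3.67, 4.10 and 4.06 in knockout cells, against 4.86, 4.82 and 5.31 in parental cells, again without overlap. CALD1 was called at 0 Gy and 4 h (-0.997) and at 2 Gy and 24 h (-1.05), and averaged -0.77 ± 0.13 (SE), a 1.71-fold lower signal in knockout cells. Its signal was above background on 10 of 12 knockout arrays and 12 of 12 parental arrays, so the size of the difference is limited by the floor of the array. The call at 0 Gy and 4 h was lost without replicate 1 of the knockout group (-0.70) or replicate 3 of the parental group (-0.84), and that at 2 Gy and 24 h without replicate 3 of the parental group (-0.90).

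TPM2 encodes beta-tropomyosin, which lies along actin filaments. At 0 Gy and 4 h its log2 signal was 4.66, 4.93 and 4.61 in knockout cells, against 5.498, 5.42 and 5.09 in parental cells, a difference of -0.61 (SE 0.19) without overlap. In the other 3 conditions the lines overlapped and the difference was -0.10 to -0.20. Over all arrays it had 4.59, 5.01 and 5.58 (lowest, median and highest) in knockout cells, against 5.01, 5.38 and 5.53 in parental cells. Its average of -0.27 ± 0.10 (SE) was called, but the call was lost on leaving out any 1 of 8 arrays: parental 0 Gy 4 h replicates 1 and 2, parental 0 Gy 24 h replicate 2, parental 2 Gy 24 h replicate 1, knockout 0 Gy 4 h replicate 3, knockout 0 Gy 24 h replicate 1, knockout 2 Gy 4 h replicate 3 and knockout 2 Gy 24 h replicate 1. The average without 1 of these arrays was between -0.26 and -0.22. The call at 0 Gy and 4 h was lost without replicate 1 (-0.57) or 3 (-0.54) of the knockout group, or replicate 1 (-0.52) or 2 (-0.56) of the parental group.

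The other 7 genes had overlapping ranges in the 2 lines. ACTG2, gamma smooth muscle actin of visceral muscle, had a lowest, median and highest log2 signal of 5.43, 5.72 and 5.995 in knockout cells, against 5.59, 5.83 and 6.20 in parental cells. CNN2, the calponin that non-muscle cells also make, had 7.54, 7.79 and 7.89 in knockout cells, against 7.47, 7.63 and 7.92 in parental cells. The ACTG2 average of -0.13 ± 0.08 (SE) was not called. Nor was the CNN2 average of 0.12 ± 0.05 (SE). CNN2 was called in it with the replicate number as a block and with dim genes left out, and also without parental 0 Gy 24 h replicate 3, parental 2 Gy 4 h replicate 3, parental 2 Gy 24 h replicate 1, or replicate 1 of the knockout groups at 24 h after 0 Gy or 2 Gy. CNN1, the calponin typical of smooth muscle, had 3.89, 4.35 and 4.78 in knockout cells, against 4.07, 4.36 and 5.31 in parental cells. MYL9, the regulatory light chain of smooth muscle myosin, had 4.24, 4.54 and 5.20 in knockout cells, against 3.99, 4.48 and 5.15 in parental cells. These 4 genes were above background on all 24 arrays. CNN1 and CNN2 did not overlap between the lines in 1 of the 4 conditions each, and ACTG2 and MYL9 overlapped in every condition. Nothing is read from these counts, as no share over all genes was computed for single conditions.

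TAGLN, TPM1 and MYH11 lay near background. TAGLN, the actin-binding protein transgelin, had a lowest, median and highest log2 signal of 3.38, 4.04 and 4.55 in knockout cells, against 3.43, 3.90 and 4.65 in parental cells, and was above background on 20 of 24 arrays. TPM1, alpha-tropomyosin, had 3.41, 3.79 and 4.27 in knockout cells, against 3.15, 3.85 and 4.56 in parental cells, and was above it on 17. MYH11, the smooth muscle myosin heavy chain, had 3.11, 3.56 and 3.81 in knockout cells, against 3.26, 3.65 and 4.08 in parental cells. MYH11 was above background on 4 of 12 knockout arrays and 7 of 12 parental arrays, and on none of the 3 knockout arrays at 0 Gy and 4 h. A filter that keeps genes above background on at least 3 arrays kept all 10 genes.

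In the single conditions the count of the 10 genes called was 3 at 0 Gy and 4 h (ACTA2, CALD1 and TPM2), beside 11.8% of all genes. It was 1 at 0 Gy and 24 h (ACTA2), beside 11.6%. At 2 Gy and 4 h it was again 1 (ACTA2), beside 12.0%, and at 2 Gy and 24 h it was 2 (ACTA2 and CALD1), beside 12.0%. At 0 Gy and 24 h, leaving out replicate 1 of the knockout group added TAGLN. At 0 Gy and 4 h, leaving out replicate 1 of the knockout group left ACTA2 alone. These counts come from the contrast on which ACTA2 was selected, and nothing is read from them.

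No change of the 10 genes with irradiation passed the test, in either line or at either time. In the average over lines and times, 0 of the 10 genes were called by limma for 2 Gy minus 0 Gy, beside 0.294% of all genes, and 0 had an unadjusted p under 0.05, beside 1895 of 17687 genes. ACTA2 averaged 7.33 at 2 Gy and 7.20 at 0 Gy, a log2 difference of 0.13 with a 95% interval of -0.01 to 0.27 (limma adjusted p = 0.503). The 10 differences lay between -0.09 and 0.13 with a median of 0.05, against 0.01 over all genes. In knockout cells no gene of the whole table was called at 4 h or 24 h (0% each). In knockout cells 1 of the 10 genes had an unadjusted p under 0.05 at 4 h, beside 583 of all genes, and 0 at 24 h, beside 736. In parental cells 0.226% of all genes were called at 4 h and 0.0678% at 24 h, none of the 10 among them. Of the 10 genes, 1 had an unadjusted p under 0.05 in parental cells at 4 h, beside 1183 of all genes, and 1 at 24 h, beside 1225.

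The genes with a low unadjusted p after irradiation were different ones in each comparison. TPM2 had 5.58, 5.28 and 4.85 at 2 Gy in knockout cells at 4 h, against 4.66, 4.93 and 4.61 at 0 Gy, a difference of 0.51 (limma adjusted p = 0.9997). CALD1 had 4.20, 3.91 and 5.20 at 2 Gy in parental cells at 4 h, against 5.10, 4.58 and 5.31 at 0 Gy, a difference of -0.56 (limma adjusted p = 0.726). TAGLN had 3.83, 4.65 and 4.29 at 2 Gy in parental cells at 24 h, against 3.97, 3.43 and 3.92 at 0 Gy, a difference of 0.48 (limma adjusted p = 0.718). In all 3 the arrays of the 2 doses overlapped, and none passed the adjusted threshold.

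**Figure D2:**
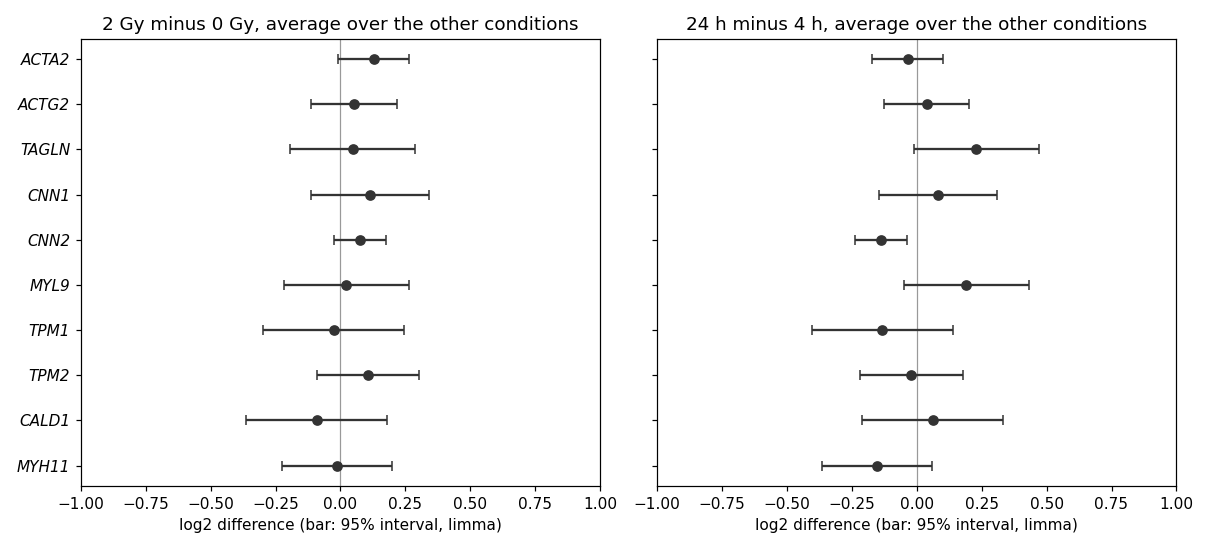
Log2 difference of each of the 10 genes for 2 Gy minus 0 Gy (left) and 24 h minus 4 h (right), each averaged over the other conditions, with 95% intervals from limma. All 10 intervals for irradiation include 0, and for time only that of CNN2, at -0.14, lies to one side of it.

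No change with time after treatment passed the test either. In the average over lines and doses, limma called 0 of the 10 genes for 24 h minus 4 h, beside 2.89% of all genes, and 1 had an unadjusted p under 0.05, beside 2755. That gene was CNN2, with a mean log2 signal of 7.63 at 24 h and 7.77 at 4 h, a difference of -0.14 with a 95% interval of -0.24 to -0.04 (limma adjusted p = 0.124). When replicate number entered the fit as a block, CNN2 was called, so the count became 1. ACTA2 differed by -0.03 with a 95% interval of -0.17 to 0.10. In knockout cells 0% of all genes were called at 0 Gy and 0.0452% at 2 Gy, and in parental cells 0% at 0 Gy and 0.695% at 2 Gy, with 0 of the 10 genes each time. At an unadjusted p under 0.05 stood TPM2 in knockout cells at 0 Gy (0.42, limma adjusted p = 0.707) and CALD1 in parental cells at 2 Gy (0.56, limma adjusted p = 0.540). The counts at that level were 1 of the 10 genes beside 1215 of all genes in knockout cells at 0 Gy, 0 beside 1405 at 2 Gy, 0 beside 830 in parental cells at 0 Gy and 1 beside 1556 at 2 Gy.

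No difference between the lines in the response of the 10 genes passed the test. For the irradiation response, knockout minus parental, limma called 0 of the 10 genes and 0% of all genes at 4 h, and likewise 0% at 24 h. For the time change, knockout minus parental, it called 0% at 0 Gy and 0% at 2 Gy. In these 4 comparisons 0 of the 10 genes had an unadjusted p under 0.05, beside 461, 560, 619 and 628 of all genes. The ACTA2 irradiation response differed between the lines by -0.23 at 4 h (95% interval -0.62 to 0.16) and by -0.03 at 24 h (-0.41 to 0.36). For CALD1 the difference was 0.64 at 4 h (-0.13 to 1.41) and -0.38 at 24 h (-1.14 to 0.39), so differences of more than 1 log2 unit lie within its intervals.

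ACTA2 lies beside genes on chromosome 10 that were also higher in the knockout line. Its immediate neighbours in the RefSeq gene order (GRCh38.p14) were both higher. FAS had a log2 signal of 6.83 to 7.96 on the knockout arrays and 5.58 to 6.61 on the parental arrays, with a difference of 1.27 ± 0.09 (SE), or 2.41-fold. STAMBPL1, which encodes a deubiquitinase, had 7.67 to 8.21 on the knockout arrays and 6.66 to 7.44 on the parental arrays, a difference of 1.00 ± 0.06 (SE), or 2.01-fold. Neither gene's lines overlapped over the 24 arrays, beside 5.65% of all genes. Of the 20 nearest measured genes, 5 were called higher and 0 lower: STAMBPL1, FAS, LIPA (0.35), which encodes lysosomal acid lipase, PANK1 (0.52), a pantothenate kinase, and ATAD1 (0.31). Of the 40 nearest, 15 were called higher and 0 lower, beside 2794 higher and 2591 lower of all 17687 genes. The median of the 20 was 0.03, but 0.52 over the 5 of them with a mean log2 signal above 6, and 0.07 over the 40. ACTA2 exceeded the median of the 20 by 1.49. Whether the difference in ACTA2 comes with that of the region was not tested.

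**Figure D3:**
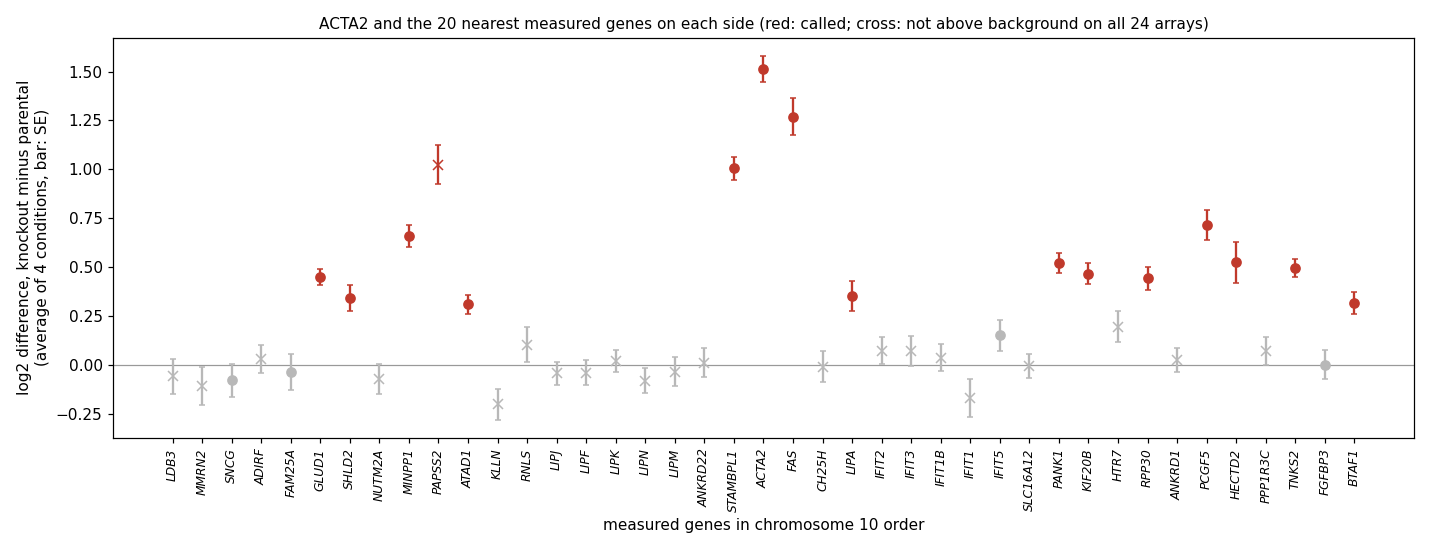
Log2 difference, knockout minus parental, averaged over 4 conditions (vertical axis, bars are SE), of ACTA2 and the 20 nearest measured genes on each side in chromosome 10 order (horizontal axis); red marks called genes and crosses those not above background on all 24 arrays. STAMBPL1 at 1.00, ACTA2 at 1.51 and FAS at 1.27 stand next to each other, and 15 of the 40 neighbours are called, all higher.

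Around the other 9 genes, the median of the 20 nearest genes ranged from -0.09 for CALD1 on chromosome 7 to 0.16 for CNN1 on chromosome 19. Near CALD1 0 genes were called higher and 3 lower, and the neighbours ranged from -0.90 to 0.13. CALD1, at -0.77, lay 0.68 below their median but within that range. TPM2 on chromosome 9 lay 0.28 below its neighbours' median, with 7 of them called higher and 1 lower. Those neighbours ranged from -0.33 to 0.39, and TPM2, at -0.27, lay within that range. CNN1 had 9 neighbours called higher and 0 lower, while its own difference was -0.08. With only neighbours of a mean log2 signal above 6, the medians near TPM2, ACTG2 and CNN2 became 0.18, 0.03 and 0.07. Those near TAGLN, TPM1 and CALD1 became -0.10, -0.04 and -0.03. Those near CNN1, MYH11 and MYL9 were 0.16, 0.04 and 0.001.

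**Figure D4:**
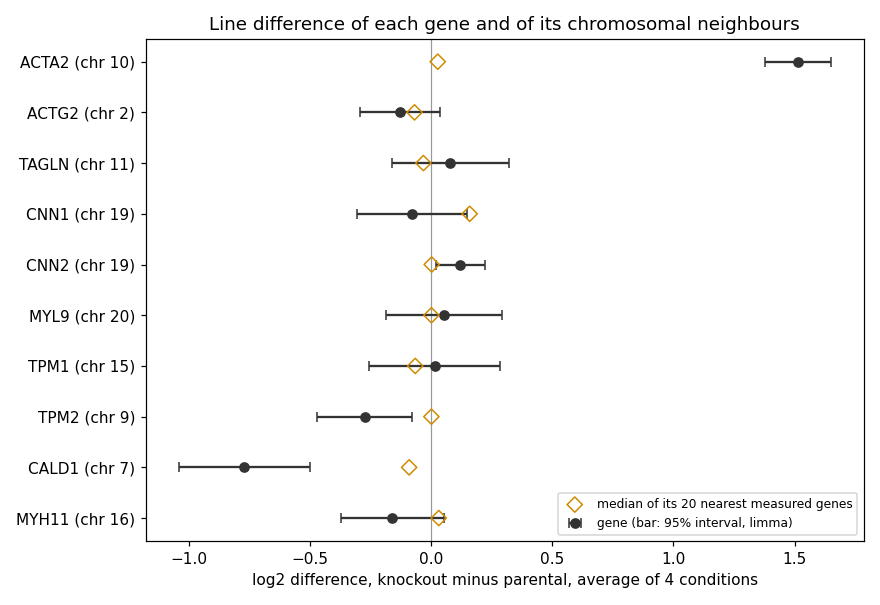
Average log2 difference, knockout minus parental (horizontal axis), of each of the 10 genes with its 95% interval from limma (black), beside the median of its 20 nearest measured genes (open diamonds). ACTA2 lies at 1.51 and CALD1 at -0.77, while the neighbour medians lie between -0.09 and 0.16.

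The genes whose profile over the 24 arrays was most like that of ACTA2 lie on other chromosomes. By Pearson's r across the arrays, which share 2 lines that differ in many genes, they were PROCR, the endothelial protein C receptor (0.988, chromosome 20), ROR2, a Wnt receptor (0.987, chromosome 9), RNF139, a ubiquitin ligase (0.983, chromosome 8), KCNH2, a potassium channel (0.978, chromosome 7), and FAM162B (0.977, chromosome 6). All 5 were higher in knockout cells, by 1.51 to 2.78. Over both lines r mostly follows the line difference, on which ACTA2 was selected, so this direction is no added evidence. Correlation within a line was not computed. FAS had an r of 0.88 with ACTA2 and STAMBPL1 0.94. Among the 10 genes r with ACTA2 ranged from -0.78 for CALD1 to 0.41 for CNN2, below the values of FAS and STAMBPL1 in each case. That order, too, mostly repeats the line differences.

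Contractile genes elsewhere in the genome mostly kept to small differences between the lines. Of 17 other smooth muscle contractile and filament genes measured, 2 were called higher and 3 lower in the knockout line, with a median of -0.02, the same as over all genes. Over all genes 30.4% were called, 2794 higher and 2591 lower of 17687, and the counts of this and the following lists stand beside that share. PGM5, an adherens junction protein of muscle, was above background on 12 of 12 knockout arrays and 1 of 12 parental arrays, and was at least 2.49-fold higher in knockout cells, taken against the higher of signal and background on each parental array, as for the other such bounds. CSRP1, a LIM protein of smooth muscle, was higher by 0.21. KCNMB1, the regulatory subunit of a smooth muscle potassium channel, was lower by 0.34. LMOD1, an actin nucleator of smooth muscle, was called lower but was above background on 0 of 12 knockout arrays and 8 of 12 parental arrays, and carries no fold. Of 14 paralogs of actin, calponin, transgelin, tropomyosin and myosin, 5 were called higher and 2 lower, with a median of 0.02. MYH10, a non-muscle myosin heavy chain, was higher by 0.23, TPM4, a non-muscle tropomyosin, by 0.21, TAGLN2 by 0.19 and the light chain MYL12A by 0.19. The striated muscle actins were not called (ACTA1 -0.09 and ACTC1 0.01, both named after their values were seen). ACTC1 lay near background, above it on 8 of 12 knockout arrays and 10 of 12 parental arrays.

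Among 19 sarcomere genes of striated muscle 1 was called higher and 1 lower, with a median of -0.09. NEB, the giant thin filament ruler nebulin, was above background on 9 of 12 knockout arrays and 1 of 12 parental arrays and at least 1.60-fold higher in knockout cells, and TNNT1, slow troponin T, was lower by 0.63.

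The list of SRF, the myocardin family and their targets had 7 of 13 measured genes called higher and 0 lower, with a median of 0.11, beside the 30.4% of all genes called in either direction and a median of -0.02. TGFB1I1, the focal adhesion adaptor Hic-5, was higher by 1.15, VCL, vinculin, by 0.61, FHL2 by 0.50 and ZYX, zyxin, by 0.35. VCL lies on chromosome 10, as ACTA2 does. SRF itself differed by -0.03 and MYOCD, myocardin, was above background on 4 of 24 arrays (both named after their values were seen). The TGF-beta pathway was called in both directions, 5 of 13 genes higher and 5 lower, with a median of 0.07. The co-receptor ENG was higher by 1.74 and the receptor TGFBR2 by 1.51, while the ligand TGFB3 was lower by 0.88. The co-receptor TGFBR3 was above background on 1 of 12 knockout arrays and 12 of 12 parental arrays and at least 1.60-fold lower in knockout cells.

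**Figure D5:**
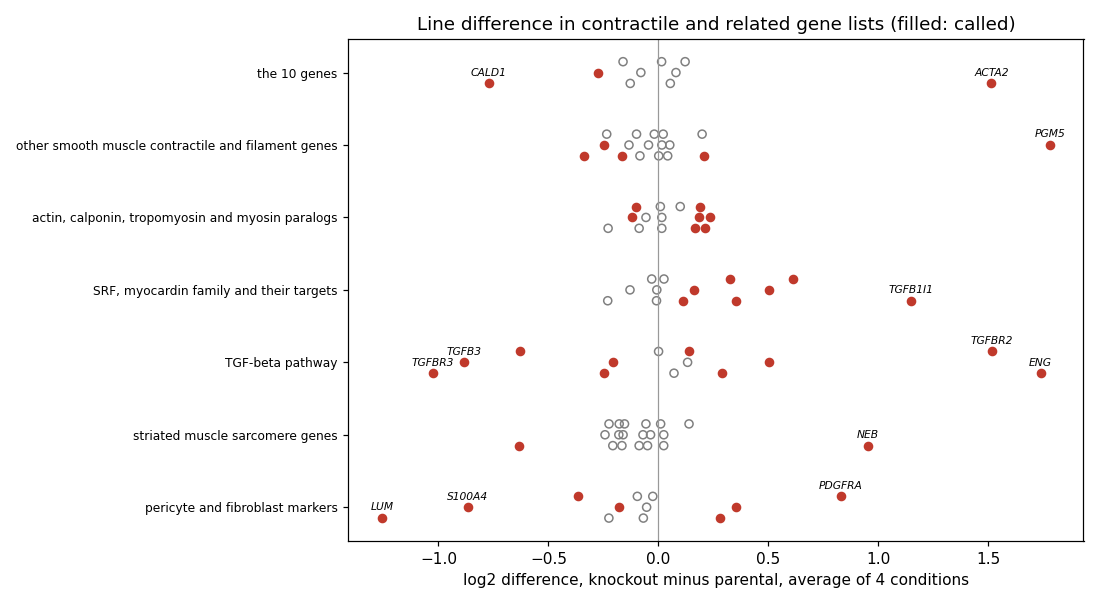
Average log2 difference, knockout minus parental (horizontal axis), of every measured gene in 7 lists (rows); filled points are called genes and gene names stand beside the largest differences. ACTA2 at 1.51 and CALD1 at -0.77 lie apart from the other 8 of the 10 genes, and in the TGF-beta row ENG lies at 1.74 and TGFB3 at -0.88. The measured differences of PGM5, NEB, TGFBR3 and LUM are set against signals at background.

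Markers of pericytes and fibroblasts did not move one way with ACTA2. Of 12 measured, 3 were called higher and 4 lower. The mean level over the list was 5.36 to 5.62 on the knockout arrays and 5.48 to 5.91 on the parental arrays. PDGFRA, a growth factor receptor, was higher in knockout cells by 0.83, S100A4 was lower by 0.87 and the collagen gene COL1A2 by 0.37. The matrix proteoglycan LUM was above background on 0 of 12 knockout arrays and 9 of 12 parental arrays, and at least 1.07-fold lower in knockout cells. The mean level of 9 Ewing sarcoma markers was 8.17 to 8.36 on the knockout arrays and 7.97 to 8.22 on the parental arrays, with 5 called higher and 3 lower. Epithelial markers had 0 of 7 called higher and 1 lower, blood markers 0 of 5 higher and 1 lower, and endothelial markers 1 of 5 higher (KDR, above background on no array) and 0 lower. The part of these marker differences in the ACTA2 result was not tested.

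Across the 114 measured genes of all these lists, limma called 0 for irradiation in the average over lines and times, beside 0.294% of all genes, and 17 had an unadjusted p under 0.05, beside 1895 of 17687. For time, 2 were called, beside 2.89% of all genes, and 24 had an unadjusted p under 0.05, beside 2755 of 17687. VCL was higher at 24 h than at 4 h by 0.23 ± 0.05 (SE, limma adjusted p = 0.00925) and PDGFRA by 0.32 ± 0.07 (SE, limma adjusted p = 0.00513), while ACTA2 differed by -0.03 over the same interval.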

How the data were processed

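The deposited table holds log2 signals per probe set of 24 arrays, which the authors made with RMA and Affymetrix Expression Console 1.1, per the submitters' processing notes; the set of arrays normalized jointly was not given in the sources used here. Of 24351 probe sets, 17709 have 1 gene symbol in the platform annotation, 0 have several and 6642 have none. For 20 genes with several probe sets, that with the highest mean signal was used, leaving 17687 genes. Each of the 10 contractile genes had 1 probe set. Quantile-based scaling can understate a change shared by most genes. Arrays carry no read depth, so their number limits the precision.

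Differences were fitted in R 4.3.3 with limma 3.58.1 (lmFit, eBayes with an intensity trend), 1 mean per group over all 24 arrays, two-sided, with Benjamini-Hochberg adjustment over all genes. The fit was tested on simulated data. Log2 values were taken as deposited, without a filter on dim genes. Gene order and chromosomes come from RefSeq (GRCh38.p14, 17683 of 17687 genes matched), promoter sequence from RefSeq. Tables and figures were made with pandas 2.3.3 and matplotlib 3.10.9.

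The contractile genes and all lists (149 entries, 136 measured) were chosen with earlier results of these data known; 1 of the lists is not reported here. Named were the 10 genes, up to 4 called genes of each list by size, up to 4 called neighbours of ACTA2, nearest first, the 5 genes most correlated with ACTA2 and SLFN11. PANK1 and ATAD1 are equally near, and both are given. Same-numbered replicates deviated together (every correlation above 0.1) in 4 of 12 comparisons of 2 groups: the lines at 0 Gy and 4 h (0.10 to 0.17) and at 2 Gy and 24 h (0.15 to 0.23), and the doses in knockout cells at 4 h (0.15 to 0.27) and at 24 h (0.13 to 0.24). The numbers come from the sample titles.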

Additional observations from a re-analysis of the deposited data

How the results depend on the processing

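Counts of the 10 genes called were recomputed without the variance trend, on the compared arrays only, with the replicate number as a block, with array weights, with a filter on dim genes, with the mean of all probe sets, with quantile normalization repeated, without the 2 parental 2 Gy arrays of narrow signal range (replicate 2 at 4 h and at 24 h), and leaving out each array. Of 341 such counts, 336 stayed within 1.5 times the reported one, and 0 differences of ACTA2, CALD1 or TPM2 reversed. The average difference of ACTA2, the value the genes were selected on, ranged from 1.48 to 1.54 and that of CALD1 from -0.86 to -0.68. The count for the lines at 0 Gy and 24 h became 2 on the compared arrays only, with CALD1 added. With the replicate block the count for time, averaged, became 1 (CNN2), and that for the lines, averaged, 4 against 3, with CNN2 added, as with dim genes left out; in the other comparisons the block changed no count. On leaving out 1 array the counts for the lines ranged from 1 to 3 at 0 Gy and 4 h, from 1 to 2 at 0 Gy and 24 h and from 1 to 2 at 2 Gy and 24 h. The average of TPM2 also lost its call when quantile normalization was repeated (-0.24, limma adjusted p = 0.057). With 3 arrays per group, small differences near background cannot be resolved, which touches TAGLN, TPM1, MYH11 and knockout CALD1. It may also touch CNN1 and MYL9, whose lowest log2 signals were 3.89 and 3.99.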
